A study of Rattus norvegicus with 9 samples.

Results

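The histone genes examined here were all genes of the count table whose symbols begin with Hist1h, Hist2h, Hist3h, or Hist4h, together with the separately encoded variants H2afx, H2afz, H2afy, H2afv, H3f3a, H3f3b, and H1f0 where these symbols were listed. This rule found 40 genes among 35362, of which 35 were cluster genes and 5 were variants, while H2afv and H3f3a were not listed under these symbols. The cells were adipose-derived mesenchymal stem cells (ASCs) of 6-week-old male Sprague Dawley rats, untreated and sequenced at passage 3 after growth in plates. They came from subcutaneous fat of the groin (SASCs), fat around the kidney (perirenal, PASCs), and fat of the epididymis (EASCs), with 3 samples in each group and 9 in all. The methods describe replicates as wells of plated cells and do not tell if each sample is from a rat of its own, so p-values here measure only the spread between these samples, which may be technical.

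Histones are the proteins around which DNA is wrapped. H2A, H2B, H3, and H4 form the core of the nucleosome, and the linker histone H1 binds the DNA between cores. The cluster genes are called replication-dependent because they are expressed mainly in S phase, when new DNA has to be packaged. Their typical mRNAs end in a stem-loop rather than in a poly(A) tail, which makes their detection depend on how a library selects RNA. The variants are called replication-independent because they are made throughout the cell cycle as ordinary polyadenylated mRNAs, with the exception that H2afx is known to give both forms. How RNA was selected for these libraries is not given in the sources used here.

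Of the 35 replication-dependent genes, 24 lay between positions 43422454 and 44841382 of chromosome 17, where Hist1h2aa was the first and Hist1h2ak the last. Of the remaining 11, Hist2 genes on chromosome 2 numbered 6, genes of the Hist3 group on chromosome 10 numbered 4, and Hist2h4a lay on chromosome 4. Positions of genes are those of the deposited table, which the methods place on rn6 while the submitters' processing notes name rn5. To show what the cluster genes have in common upstream, windows of 250 bases before the annotated start were read from RefSeq on GRCr8 for 34 of the 40 genes. No window is given here for Hist1h2ai, Hist1h2ail, Hist1h3a, Hist1h4a, Hist2h4, and Hist2h4a. The windows of 4 genes that the results turn on are shown 5′ to 3′ and end next to the start, with capitals for the octamer ATTTGCAT, the CCAAT box, and TATAAA, each searched on both strands.
Hist1h2bk: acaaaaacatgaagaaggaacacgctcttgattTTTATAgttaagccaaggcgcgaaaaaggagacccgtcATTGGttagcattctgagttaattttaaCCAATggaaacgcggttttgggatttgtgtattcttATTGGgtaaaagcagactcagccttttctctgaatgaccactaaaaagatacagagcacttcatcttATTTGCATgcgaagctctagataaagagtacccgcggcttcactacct
Hist1h2bh: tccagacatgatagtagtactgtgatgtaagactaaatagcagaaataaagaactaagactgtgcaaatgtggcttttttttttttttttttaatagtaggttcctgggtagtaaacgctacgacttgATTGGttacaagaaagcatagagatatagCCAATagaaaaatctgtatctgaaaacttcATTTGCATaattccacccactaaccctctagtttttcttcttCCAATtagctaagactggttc
Hist2h2be: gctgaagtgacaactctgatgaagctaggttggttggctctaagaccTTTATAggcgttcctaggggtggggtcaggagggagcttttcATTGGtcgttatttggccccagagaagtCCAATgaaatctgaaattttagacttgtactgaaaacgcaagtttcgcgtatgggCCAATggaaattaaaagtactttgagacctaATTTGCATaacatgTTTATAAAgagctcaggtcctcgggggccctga
Hist1h4b: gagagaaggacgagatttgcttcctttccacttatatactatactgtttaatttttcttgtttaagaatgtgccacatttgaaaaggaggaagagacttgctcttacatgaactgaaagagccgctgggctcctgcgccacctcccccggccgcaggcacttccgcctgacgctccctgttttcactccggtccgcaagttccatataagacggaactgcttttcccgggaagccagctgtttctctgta
These windows lie at chr17:47181941-47182190 (- strand), chr17:41869342-41869591 (- strand), chr2:186469202-186469451 (+ strand), and chr17:47175996-47176245 (+ strand) of GRCr8. RefSeq lists the gene ID of Hist1h2bh under the symbol Hist1h2bq.

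The octamer, known as an element of H2B promoters, was in 12 of the 29 windows of replication-dependent genes (41.4%) and in 1.5% of all 27457 promoter windows. Among H2A genes it was in 6 of 11 windows, and among H2B genes also in 6 of 11, while 0 of 4 H1 windows held it. A CCAAT box, whose reverse is ATTGG, was in 27 of 29 windows (93.1%) against 34.3% of all windows, and only Hist1h2ao and Hist1h4b among these 29 lacked it. TATAAA, whose reverse is TTTATA and which overlaps itself in runs such as that of Hist2h2be, was in 17 of 29 windows (58.6%) against 13.1% of all. The window of Hist1h2bh resembled that of Hist1h2bk in its 3 CCAAT boxes and its octamer, and differed in having no TATAAA. Among the 5 variants, the octamer was in 1 window, that of H3f3b. Many of these windows belong to neighbouring and related genes, so they are not independent of each other. The windows of Hist1h2aa and Hist1h2ba, of Hist2h2ac and Hist2h2be, and of Hist3h2a and Hist3h2bb overlap on opposite strands. The octamer of each of these pairs was therefore counted in both classes.

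In every sample, most counts on replication-dependent genes fell on a few of them. Hist1h2bh took 47.2% of all counts on the 35 genes, Hist1h4b 18.1%, and Hist3h2a 11.1%, which together made 76.4% when all samples were pooled. The share of Hist1h2bh was 54.0% to 55.2% in SASCs samples, 29.3% to 39.9% in PASCs samples, and 50.5% to 52.0% in EASCs samples. That of the 3 genes together was 85.5% to 86.1%, 61.8% to 70.3%, and 75.5% to 81.6% in the same order. Per kilobase of the listed transcript length, Hist1h2bh reached 51.3 CPM (counts scaled to library size by TMM) over all samples, Hist1h4b 14.4, and Hist3h2a 7.28. The transcript lengths listed were 949, 1296, and 1553 bases for these genes and 2590 bases for Hist2h2be, whereas the lengths of the 21 replication-dependent genes tested had a lower limit of 381 bases, that of Hist1h2bk. Hist1h2bh was annotated over chr17:43679925-43689311 and Hist1h4b over chr17:44522144-44526587, both much longer than their transcripts. At the other end, 5 genes had 0 counts in all 9 samples, namely Hist1h2aa, Hist1h2ba, Hist2h4a, Hist3h2bb, and Hist3h3. Hist1h2aa and Hist1h2ba are testis forms, as is Hist1h1t, which had 0 to 3 counts per sample. Across the samples, 3 counts, the limit that a count of 0 allows, corresponded to 0.104 to 0.159 CPM, a limit that covers counting error only.

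Total counts ranged from 17591916 to 30299032 per sample. Counts on rRNA genes, which also lack a poly(A) tail, made up 15.5%, 10.4%, and 15.0% in the SASCs samples, 27.5%, 32.9%, and 22.4% in the PASCs samples, and 29.1%, 15.9%, and 40.3% in the EASCs samples. The share was therefore higher in every PASCs sample than in every SASCs sample, and EASCs replicate 2 was close to SASCs. Surface genes of mesenchymal stem cells were detected in all groups, with 7 of 7 tested, and summed to 4135 to 4262 CPM in SASCs samples, 3784 to 3960 CPM in PASCs samples, and 4958 to 5027 CPM in EASCs samples. Among them Pdgfra was lower in both visceral depots, with means of 1543, 277.9, and 234.6 CPM in SASCs, PASCs, and EASCs, and Eng and Itgb1 were DEGs higher in EASCs than in SASCs. The list of 8 mesothelial genes summed to 20.01 to 21.4 CPM in SASCs samples, 98.3 to 105.6 CPM in PASCs samples, and 131.6 to 142.9 CPM in EASCs samples, and Krt18 was at 0 in SASCs. Leukocyte and macrophage genes summed to 64.9 to 70.6 CPM in SASCs samples, 67.8 to 70.04 CPM in PASCs samples, and 121.2 to 123.4 CPM in EASCs samples, with 6 of 7 genes tested. In PASCs their members went opposite ways, with Cd163 lower than in SASCs (log2 fold change -1.88) and Csf1r (1.84) and Itgam (1.25) higher. Adipocyte genes summed to 55.3 to 60.7 CPM, 13.5 to 14.4 CPM, and 5.64 to 6.20 CPM in the same order, with 3 of 4 tested. Endothelial genes summed to 41.6 to 44.2 CPM, 11.5 to 14.3 CPM, and 29.3 to 32.1 CPM, with 5 of 5 tested. Their members also went opposite ways. Tek was higher than in SASCs (log2 fold change 1.71 in PASCs and 1.66 in EASCs) and Kdr was lower (-3.45 and -2.26). Cdh5 was lower in PASCs (-2.99) and was not called in EASCs (0.09). Of 8 germ cell genes, 7 were at 0 in every group mean and 1, Sycp3, was tested. The part of these cell types in the histone values was not tested, and in bulk RNA fewer cells of a type and less RNA per cell cannot be told apart.

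To compare the depots, the histone genes were read from a fit over the whole table. Genes with too few counts were removed first, which left 14770 genes, among them 26 of the 40 histone genes: 21 replication-dependent and all 5 replication-independent. A gene was counted as differentially expressed (DEG) when edgeR's quasi-likelihood test gave an adjusted p-value under 0.05 and the fold change exceeded 2. In EASCs compared with SASCs, 21 histone genes were higher and 0 were lower, and the other 5 passed the p-value at a smaller fold change. Over all genes tested, 13.6% were higher and 14.2% were lower in this comparison. At the smaller fold change, 21.9% of all genes were higher and 20% were lower. In PASCs compared with SASCs, 19 histone genes were higher and 0 were lower, where 12% of all genes were higher and 14.9% were lower. DESeq2 also called 0 histone genes lower in both comparisons, and at an unadjusted p-value under 0.05 and any fold change edgeR gave 3 lower genes in each, where 35.4% and 35.7% of all genes were lower at that threshold in EASCs and PASCs. In EASCs compared with PASCs, Hist1h2bh alone was a DEG, as 1 gene higher and 0 lower, where 5.19% of all genes were higher and 2.2% lower. DESeq2 gave the same counts of 1 and 0, and 4 histone genes had an unadjusted p-value under 0.05 in the lower direction by edgeR, where 19.1% of all genes did.

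These calls fell on 19 of the 21 replication-dependent genes in EASCs and 17 of 21 in PASCs, and on 2 of the 5 replication-independent genes in each. The median log2 fold change of the 21 genes was 2.36 in EASCs and 2.07 in PASCs against SASCs, and 0.18 between EASCs and PASCs. Over all genes tested the medians were 0.01, -0.01, and -0.01. All SASCs samples were below all EASCs samples for 23 of the 26 genes, where 36.3% of all genes showed this. The same held against PASCs for 20 of the 26 genes, where 35.7% of all genes showed it. However, 15 of the 21 replication-dependent genes were over the filter's limit of 0.403 CPM in fewer than 3 SASCs samples, so they were tested because they were high elsewhere. The counts of DEGs and of genes without overlap and the medians describe these genes and support no direction. Both comparisons with SASCs share the SASCs samples.

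**Figure D1:**
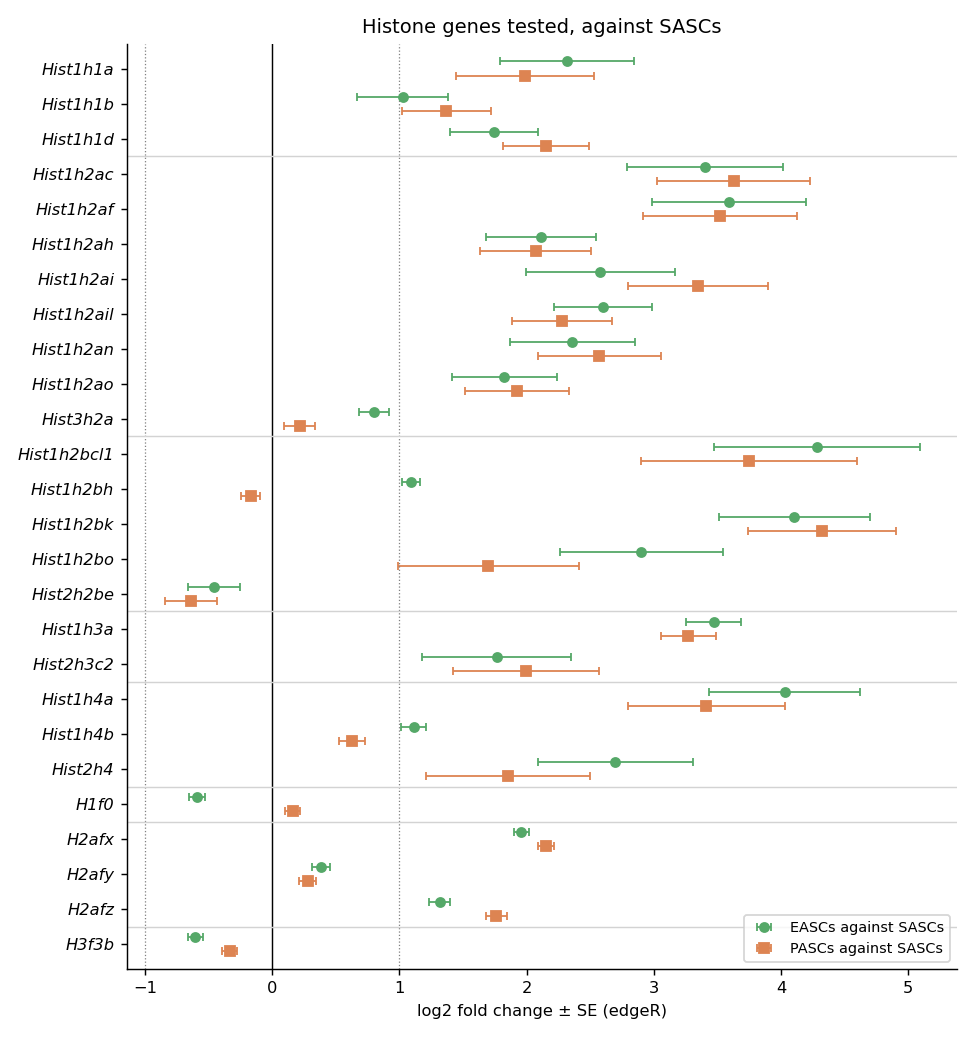
Log2 fold changes with standard errors (horizontal axis) of the 26 histone genes tested (rows, grouped by class, with the 5 replication-independent genes in the lowest rows), for EASCs (green circles) and PASCs (orange squares) against SASCs; dotted lines mark a fold change of 2. Hist1h2bh lies at 1.09 in EASCs and -0.17 in PASCs, and Hist2h2be is the only replication-dependent gene below 0 in both; the signs of H2afy in both and of H1f0 in PASCs turn without TMM scaling.

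Among the linker histones, the 3 H1 genes tested were all DEGs higher in both visceral depots, where 13.6% of all genes were higher in EASCs and 12% in PASCs. Hist1h1a was over the filter's limit in 0 SASCs samples and Hist1h1d in 2, so both were tested because they were high elsewhere. Hist1h1d had 0.695, 0.297, and 0.732 CPM in the SASCs samples, 2.68, 3.103, and 1.85 CPM in the PASCs samples, and 2.34, 1.500, and 1.97 CPM in the EASCs samples. All PASCs and EASCs samples were above all SASCs samples, and the log2 fold changes were 2.15 (SE 0.34, adjusted p = 2.76e-06) in PASCs and 1.74 (SE 0.35, adjusted p = 7.55e-05) in EASCs by edgeR. Hist1h1b had 0.661, 0.891, and 0.732 CPM in the SASCs samples, 1.76, 2.54, and 1.54 CPM in the PASCs samples, and 1.63, 0.892, and 2.15 CPM in the EASCs samples. Its lowest EASCs sample, replicate 2, was level with the highest SASCs sample. The log2 fold change of Hist1h1b in EASCs was 1.03 (adjusted p = 0.0132 by edgeR) and missed the threshold without SASCs replicate 1 (0.92, adjusted p = 0.0502), without EASCs replicate 1 (0.99, under 2-fold), without EASCs replicate 3 (0.73, adjusted p = 0.103), or under total counts without TMM (0.58, adjusted p = 0.186). Hist1h1a was lower in level, with means of 0.193 ± 0.137 CPM (SD, n = 3) in SASCs, against 0.817 ± 0.331 CPM in PASCs and 1.03 ± 0.247 CPM in EASCs, with 2 to 10 counts per SASCs sample. Its log2 fold changes were 1.99 and 2.32 in PASCs and EASCs. The 4 H1 genes summed to 1.601 ± 0.284 CPM (SD, n = 3) in SASCs, against 5.31 ± 1.35 CPM in PASCs and 4.57 ± 1.19 CPM in EASCs.

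Of 13 H2A genes, 8 were tested and 7 were DEGs in each comparison with SASCs, where 13.6% of all genes were higher in EASCs and 12% in PASCs. Each of the 7 was over the filter's limit in at most 2 SASCs samples, so they were tested because they were high elsewhere. The exception was the most abundant, Hist3h2a on chr10:45297603-45299155. It had 9.32, 8.91, and 7.86 CPM in the SASCs samples, 9.68, 11.9, and 8.63 CPM in the PASCs samples, and 15.7, 15.3, and 14.5 CPM in the EASCs samples. EASCs were thus above the other groups without overlap, while PASCs and SASCs overlapped. The log2 fold change was 0.80 (SE 0.12, adjusted p = 1.21e-06) in EASCs, and 0.21 (SE 0.12, adjusted p = 0.121) in PASCs by edgeR, and without PASCs replicate 3 it was 0.31 and was called (adjusted p = 0.0368). EASCs and PASCs differed by 0.58 (adjusted p = 0.00028).

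Hist1h2ail had 0.278, 0.382, and 0.244 CPM in the SASCs samples, 1.11, 1.68, and 1.69 CPM in the PASCs samples, and 1.72, 2.03, and 1.83 CPM in the EASCs samples, with log2 fold changes of 2.28 and 2.60 in PASCs and EASCs. Hist1h2ah had 0.243, 0.467, and 0.537 CPM in the SASCs samples, 0.842, 2.54, and 1.75 CPM in the PASCs samples, and 1.76, 1.26, and 2.28 CPM in the EASCs samples, and its listed position lies within that of Hist1h3a. Both genes had all PASCs and EASCs samples above all SASCs samples. The remaining 5 genes tested, Hist1h2ac, Hist1h2af, Hist1h2ai, Hist1h2an, and Hist1h2ao, had SASCs means of 0.0891 to 0.405 CPM, PASCs means of 1.00 to 1.51 CPM, and EASCs means of 0.862 to 1.40 CPM. Their proteins are nearly the same and their sequences are close copies, so reads could have been split among them. The sum over the 13 H2A genes was 10.7 ± 0.234 CPM (SD, n = 3) in SASCs, against 20.5 ± 4.27 CPM in PASCs and 24.8 ± 1.43 CPM in EASCs.

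H2B genes differed among themselves. Hist1h2bh, the most abundant histone cluster gene of these cells, had 37.7, 36.5, and 34.6 CPM in the SASCs samples, 32.6, 29.1, and 35.3 CPM in the PASCs samples, and 78.96, 73.9, and 79.4 CPM in the EASCs samples. EASCs stood above both other groups without overlap, while PASCs and SASCs overlapped. By edgeR, its log2 fold change was 1.09 (SE 0.07, adjusted p = 9.6e-14) in EASCs against SASCs and 1.26 (SE 0.07, adjusted p = 4.49e-14) in EASCs against PASCs. Under total counts without TMM it was 0.69 in EASCs against SASCs (adjusted p = 6.85e-05), below the 2-fold threshold of a DEG. In PASCs against SASCs it was -0.17 (SE 0.07, adjusted p = 0.0407), a call that was lost without SASCs replicate 1 (adjusted p = 0.14), SASCs replicate 2 (adjusted p = 0.0833), PASCs replicate 1 (adjusted p = 0.0653), PASCs replicate 2 (adjusted p = 0.298), EASCs replicate 1 (adjusted p = 0.0507), or EASCs replicate 2 (adjusted p = 0.0529). It was also lost when no gene was filtered out (adjusted p = 0.0529) and when EASCs were left out of the fit (adjusted p = 0.0583).

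Hist2h2be on chr2:198360810-198363399 was below SASCs in both visceral depots. It had 5.32, 4.33, and 3.71 CPM in the SASCs samples, 2.52, 2.65, and 3.55 CPM in the PASCs samples, and 2.64, 3.405, and 3.76 CPM in the EASCs samples. All PASCs samples were below all SASCs samples, and EASCs overlapped with SASCs. The log2 fold change was -0.64 (SE 0.21, adjusted p = 0.00735) in PASCs and -0.46 (SE 0.20, adjusted p = 0.0456) in EASCs by edgeR. The PASCs call was lost without SASCs replicate 1 (-0.48, adjusted p = 0.0696). The EASCs call was lost without any of SASCs replicate 1 (-0.30, adjusted p = 0.249), SASCs replicate 2 (-0.48, adjusted p = 0.0657), EASCs replicate 1 (-0.32, adjusted p = 0.196), or EASCs replicate 2 (-0.49, adjusted p = 0.0679), and in DESeq2 (adjusted p = 0.055). It was also lost with a replicate block in the model (-0.47, adjusted p = 0.0515).

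The other H2B genes tested were near absent in SASCs. Each was over the filter's limit in 0 SASCs samples, so they were tested because they were high elsewhere. Hist1h2bk on chr17:44527421-44527801 had 2, 2, and 1 counts in the SASCs samples, and its levels were 0.0695, 0.0849, and 0.0488 CPM in the SASCs samples, 1.03, 2.17, and 1.17 CPM in the PASCs samples, and 1.298, 0.851, and 1.66 CPM in the EASCs samples, with fitted log2 fold changes of 4.32 (SE 0.58) and 4.10 (SE 0.59). Hist1h2bcl1 had 0, 2, and 1 counts in SASCs against 10 to 22 in PASCs and 9 to 39 in EASCs. Hist1h2bo, with 2 to 4 counts per SASCs sample and 17 to 26 per EASCs sample, had only 2 counts in PASCs replicate 3, and its log2 fold change in PASCs of 1.70 (adjusted p = 0.0366 by edgeR) missed the threshold without SASCs replicate 1 (adjusted p = 0.057), SASCs replicate 2 (adjusted p = 0.101), SASCs replicate 3 (adjusted p = 0.0817), or PASCs replicate 2 (0.82, adjusted p = 0.409). The threshold was also missed under total counts without TMM (1.36, adjusted p = 0.106) or with a replicate block in the model (1.64, adjusted p = 0.0597). Without PASCs replicate 2, Hist1h2bo also became a second DEG of EASCs against PASCs (2.08, adjusted p = 0.0195 by edgeR), with 7 and 2 counts left in PASCs. Hist1h2bo was over the filter's limit in 3 EASCs samples, and in PASCs only in replicate 2. Hist1h2bl was not tested. It had 0 counts in every SASCs sample and 4 to 9 in PASCs and 3 to 13 in EASCs, which is at least 2.16-fold higher in PASCs and at least 3.18-fold higher in EASCs than 3 counts in an average SASCs sample. Without Hist1h2bh, the H2B genes summed to 4.77 ± 0.789 CPM (SD, n = 3) in SASCs, against 6.002 ± 1.19 CPM in PASCs and 7.48 ± 1.97 CPM in EASCs, of which Hist2h2be was the largest part.

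Both H3 genes tested were DEGs higher in the visceral depots, against the same 13.6% and 12% of all genes, and Hist2h3c2 was over the filter's limit in 0 SASCs samples. Hist1h3a had 0.661, 0.722, and 0.488 CPM in the SASCs samples, 6.31, 6.69, and 5.296 CPM in the PASCs samples, and 7.33, 6.28, and 7.52 CPM in the EASCs samples. No sample of PASCs or EASCs came near those of SASCs, and the log2 fold changes were 3.27 (SE 0.22, adjusted p = 2.89e-13) and 3.47 (SE 0.22, adjusted p = 5.96e-14) by edgeR. This row covers chr17:43616203-43634463 with a transcript of 2114 bases and overlaps Hist1h4a, Hist1h2ah, and Hist1h2af and 3 further listed loci, so its reads and theirs cannot be told apart with certainty. Hist2h3c2, which overlaps Hist2h4 on the other strand, had means of 0.145 ± 0.0574 CPM (SD, n = 3) in SASCs, against 0.611 ± 0.142 CPM in PASCs and 0.521 ± 0.166 CPM in EASCs. The EASCs call of Hist2h3c2 (log2 fold change 1.77, adjusted p = 0.00948 by edgeR) was lost without EASCs replicate 1 (1.48, adjusted p = 0.0607) or under total counts without TMM (1.37, adjusted p = 0.0663).

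Of the H4 genes, which encode the same protein, Hist1h4b was the most abundant, with 12.7, 11.7, and 11.2 CPM in the SASCs samples, 16.4, 20.4, and 18.2 CPM in the PASCs samples, and 24.1, 28.01, and 24.9 CPM in the EASCs samples. The groups did not overlap, in the order SASCs, PASCs, and EASCs. The log2 fold change of Hist1h4b was 1.11 (SE 0.10, adjusted p = 1.16e-10) in EASCs and 0.62 (SE 0.10, adjusted p = 4.64e-06) in PASCs against SASCs, and 0.49 (SE 0.10, adjusted p = 0.000216) in EASCs against PASCs by edgeR. Under total counts without TMM, the PASCs call of Hist1h4b (0.30, adjusted p = 0.14) and the call of EASCs against PASCs (0.43, adjusted p = 0.0817) were lost, and the EASCs value against SASCs of 0.73 was below 2-fold. Hist1h4a, which lies within Hist1h3a, had 0, 0.255, and 0.0976 CPM in the SASCs samples, 1.26, 1.76, and 0.583 CPM in the PASCs samples, and 1.88, 1.34, and 2.46 CPM in the EASCs samples, with log2 fold changes of 3.41 in PASCs and 4.03 in EASCs. The table pairs this row with a description of an H3 gene, and its class here was taken from the symbol and is uncertain. Hist2h4 had 13, 4, and 0 counts in the SASCs samples, 17, 34, and 10 in the PASCs samples, and 21, 22, and 62 in the EASCs samples, so that EASCs replicate 3 stood apart. Its log2 fold change was 2.70 (adjusted p = 0.000331) in EASCs and 1.85 (adjusted p = 0.0132) in PASCs by edgeR, and the latter missed the threshold without SASCs replicate 3 (1.37, adjusted p = 0.0624) or PASCs replicate 2 (1.37, adjusted p = 0.104). Hist1h4a was over the filter's limit in 0 SASCs samples and Hist2h4 in 1, so both were tested because they were high elsewhere.

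**Figure D2:**
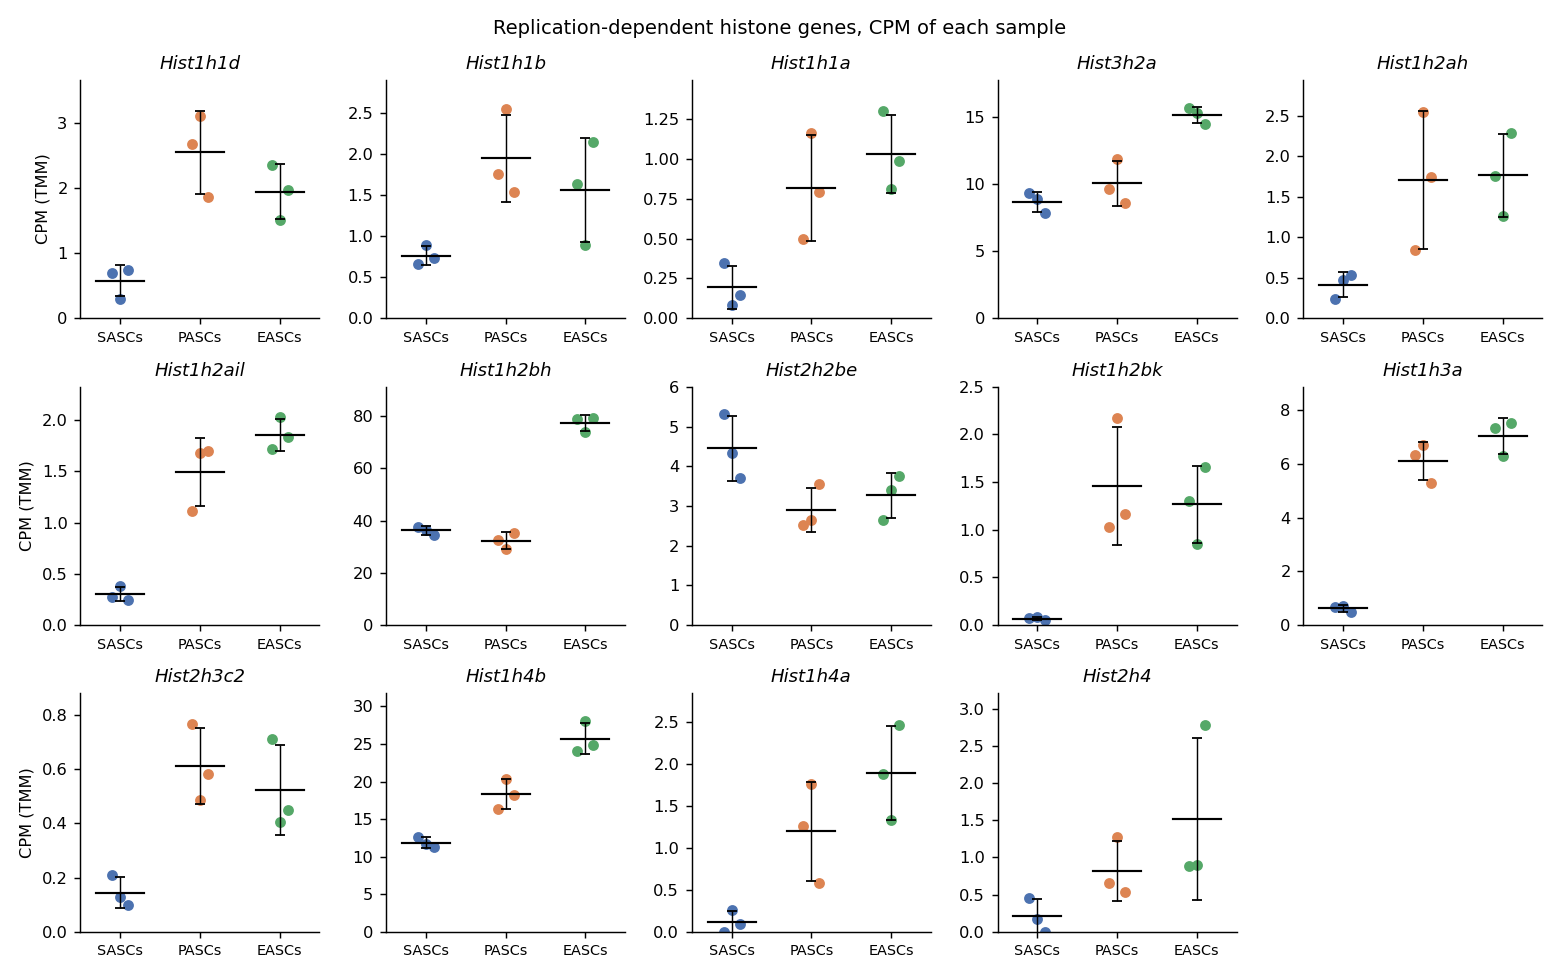
CPM after TMM scaling (vertical axes, starting at 0) of up to 3 replication-dependent genes with the highest mean per class (one panel each), with 1 point per sample and bars for the mean and SD of 3 samples. Hist1h2bh and Hist3h2a are high in EASCs alone, Hist1h4b takes 3 levels, Hist2h2be is highest in SASCs, and the other 10 genes have all SASCs samples below all other samples, with Hist1h1b level in one pair of SASCs and EASCs samples, and Hist1h3a with means of 0.623, 6.10, and 7.04 CPM.

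The 3 most abundant genes were summed apart from the rest. Hist1h2bh, Hist1h4b, and Hist3h2a together had 59.7, 57.05, and 53.6 CPM in the SASCs samples, 58.7, 61.4, and 62.2 CPM in the PASCs samples, and 118.8, 117.3, and 118.8 CPM in the EASCs samples. Their sum was 2.08 times as high in EASCs as in SASCs and 1.07 times as high in PASCs as in SASCs. The other 32 replication-dependent genes had 10.2, 9.21, and 8.93 CPM in the SASCs samples, 27.3, 37.9, and 26.3 CPM in the PASCs samples, and 32.9, 26.5, and 38.5 CPM in the EASCs samples. That sum was 3.23 times as high in PASCs and 3.46 times as high in EASCs as in SASCs, with no overlap, and PASCs and EASCs overlapped. All 35 genes summed to 66.2 ± 3.61 CPM (SD, n = 3) in SASCs, against 91.2 ± 7.08 CPM in PASCs and 150.9 ± 6.79 CPM in EASCs. These sums were formed after the values were seen and were not tested.

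In each group, the sum of the other 32 genes was highest in the sample with the highest share of rRNA counts, which was replicate 1 of SASCs at 15.5%, replicate 2 of PASCs at 32.9%, and replicate 3 of EASCs at 40.3%. In PASCs and EASCs the remaining samples had the same order by both values, and in SASCs replicate 3, at 15.0%, had 8.93 CPM and replicate 2, at 10.4%, had 9.21 CPM. The sum of the 3 abundant genes ranged from 53.6 to 59.7 CPM in SASCs, from 58.7 to 62.2 CPM in PASCs, and from 117.3 to 118.8 CPM in EASCs. The lowest EASCs sum of the 32 genes, 26.5 CPM, was in replicate 2, whose rRNA share of 15.9% was close to the 15.5% of SASCs replicate 1, where the sum was 10.2 CPM. No PASCs sample had an rRNA share near that of SASCs, so for PASCs the depot and this share cannot be told apart. Of 7 other RNAs without a poly(A) tail searched by name, only Rmrp, the RNA of a ribonuclease complex, was tested. Symbols beginning with Snora or Snord were not searched. Rmrp had 27.7, 37.2, and 32.9 CPM in the SASCs samples, 49.6, 52.1, and 31.5 CPM in the PASCs samples, and 55.5, 24.5, and 111.1 CPM in the EASCs samples, where the groups overlapped and EASCs replicate 2 was the lowest sample. By edgeR, Rmrp was higher in EASCs than in SASCs, with a log2 fold change of 0.97 (SE 0.27, adjusted p = 0.00271), and in PASCs it was 0.46 (SE 0.28, adjusted p = 0.139). The part of RNA selection in the differences between depots was not tested.

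**Figure D3:**
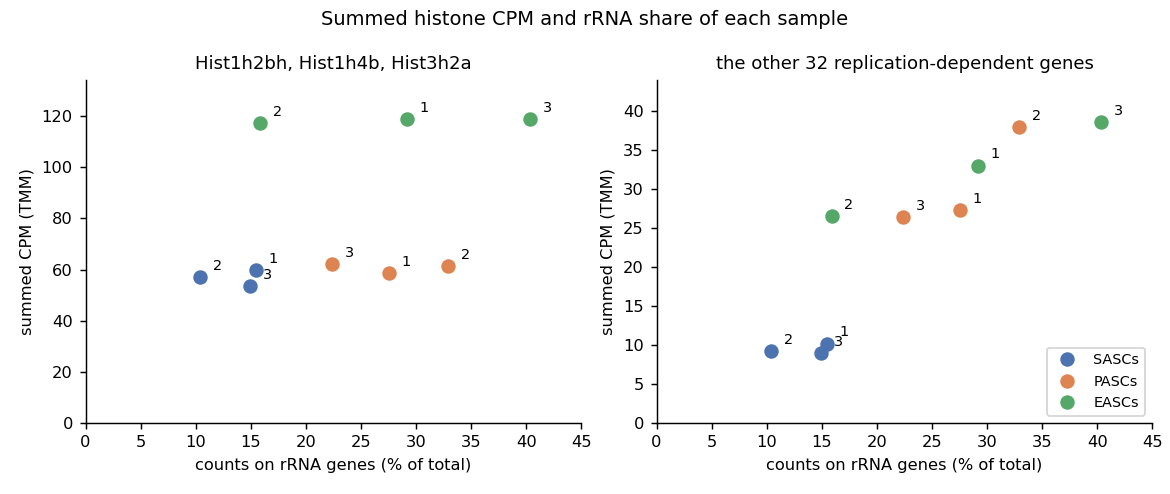
Summed CPM after TMM scaling (vertical axes, starting at 0) of the 3 most abundant replication-dependent genes (left) and the other 32 (right) against the percentage of counts on rRNA genes (horizontal axes), with 1 numbered point per sample. EASCs replicate 2, at 15.9%, lies beside SASCs on the horizontal axis and at 117.3 and 26.5 CPM on the vertical axes, above all SASCs samples in both panels.

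The 5 replication-independent genes summed to 565.7 ± 18.8 CPM (SD, n = 3) in SASCs, against 687.7 ± 50.4 CPM in PASCs and 534.5 ± 20.6 CPM in EASCs. In each comparison with SASCs, 2 were DEGs, both higher, against 13.6% of all genes in EASCs and 12% in PASCs, and 3 passed the p-value at a smaller fold change. At that smaller fold change, 21.9% of all genes were higher and 20% lower in EASCs, and 22.6% and 19.7% in PASCs. H2afx encodes H2A.X, which is phosphorylated next to DNA breaks. It had 22.1, 23.3, and 21.2 CPM in the SASCs samples, 98.2, 99.1, and 99.1 CPM in the PASCs samples, and 88.6, 85.7, and 84.7 CPM in the EASCs samples. No 2 groups overlapped, and the log2 fold change was 2.15 (SE 0.06, adjusted p = 1.45e-21) in PASCs and 1.96 (SE 0.06, adjusted p = 1.12e-20) in EASCs by edgeR, with -0.19 (adjusted p = 0.00797) in EASCs against PASCs, a call of H2afx that was lost under total counts without TMM (-0.26, adjusted p = 0.33). The table pairs this row, at chr8:48665652-48666981, with the description and gene ID of the neighbouring gene Dpagt1, and the symbol and position were taken as its identity.

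H2afz encodes H2A.Z, a variant found around transcription start sites. It had 37.5, 35.4, and 30.6 CPM in the SASCs samples, 136.9, 109.5, and 105.2 CPM in the PASCs samples, and 89.2, 86.2, and 83.5 CPM in the EASCs samples, again with no overlap between any groups. The log2 fold changes were 1.76 (SE 0.08, adjusted p = 1.11e-16) in PASCs and 1.32 (SE 0.08, adjusted p = 7.51e-14) in EASCs, and -0.44 in EASCs against PASCs (adjusted p = 5.43e-05, edgeR). Under total counts without TMM the EASCs value against SASCs of H2afz was 0.93, below 2-fold. A listed locus that RefSeq names an H2A.Z pseudogene, LOC100360145, can share reads with it and followed the same order, at 17.2 ± 2.39 CPM (SD, n = 3) in SASCs, against 68.4 ± 2.78 CPM in PASCs and 47.9 ± 2.65 CPM in EASCs.

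The 3 other variants changed less than 2-fold in each comparison. H3f3b encodes H3.3, which is placed in chromatin outside DNA replication. It had 320.8, 310.7, and 300.7 CPM in the SASCs samples, 264.8, 243.6, and 231.2 CPM in the PASCs samples, and 214.3, 204.0, and 195.4 CPM in the EASCs samples. It was thus highest in SASCs, with no overlap between any groups, and the log2 fold change was -0.60 (SE 0.06, adjusted p = 4.68e-10) in EASCs and -0.33 (SE 0.06, adjusted p = 1.1e-05) in PASCs by edgeR. In EASCs against PASCs it was -0.27 (adjusted p = 0.000586, edgeR), a call that was lost under total counts without TMM (-0.33, adjusted p = 0.175). The second H3.3 gene, H3f3a, is the RefSeq name for the gene ID of the row LOC100361558, which had 146.4 ± 4.74 CPM (SD, n = 3) in SASCs, against 127.7 ± 1.64 CPM in PASCs and 129.3 ± 6.25 CPM in EASCs. Its log2 fold changes were -0.18 (adjusted p = 0.00463) in EASCs and -0.20 (adjusted p = 0.0021) in PASCs by edgeR.

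H1f0 encodes the linker histone H1.0, known from cells that have stopped dividing. It had 157.3, 164.4, and 151.9 CPM in the SASCs samples, 192.0, 175.5, and 161.1 CPM in the PASCs samples, and 112.0, 102.0, and 100.2 CPM in the EASCs samples. EASCs lay below both other groups without overlap, with log2 fold changes of -0.59 (SE 0.06, adjusted p = 3.3e-09) against SASCs and -0.75 (SE 0.06, adjusted p = 1.69e-10) against PASCs by edgeR. PASCs overlapped with SASCs, and the log2 fold change of 0.16 (adjusted p = 0.0239) turned to -0.17 when libraries were scaled by total counts without TMM, and its call was lost without SASCs replicate 1 (adjusted p = 0.0563), SASCs replicate 3 (adjusted p = 0.0884), or PASCs replicate 1 (0.10, adjusted p = 0.193). H2afy encodes macroH2A1, a variant with a large extra domain. Its means were 40.4 ± 3.57 CPM (SD, n = 3) in SASCs, against 48.9 ± 2.42 CPM in PASCs and 52.7 ± 0.232 CPM in EASCs, with log2 fold changes of 0.28 and 0.38 against SASCs that turned to -0.048 and -0.014 under total counts without TMM. Total-count scaling moved the median of all genes by -0.32 in PASCs and -0.40 in EASCs, so these 3 values lay above that median under either scaling.

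**Figure D4:**
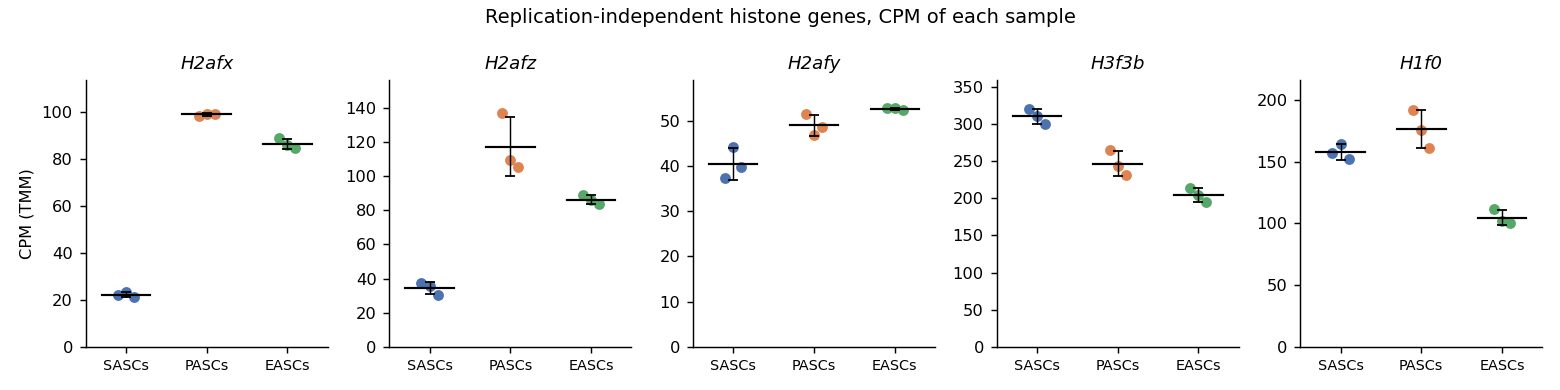
CPM after TMM scaling (vertical axes, starting at 0) of the 5 replication-independent genes, with 1 point per sample and bars for the mean and SD of 3 samples. H2afx and H2afz are lowest in SASCs at 22.2 and 34.5 CPM, H3f3b is highest in SASCs at 310.7 CPM, and H1f0 is lowest in EASCs at 104.7 CPM; H2afy differs little, and its order against SASCs turns without TMM scaling.

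Per kilobase of listed length, the order of the replication-independent genes changed with the depot. In SASCs, H3f3b was first at 188.0 CPM per kilobase, followed by H1f0 at 84.8, H2afz at 42.7, H2afx at 16.7, and H2afy at 6.40. In PASCs, H3f3b at 149.1 and H2afz at 145.1 were next to each other, ahead of H1f0 at 94.7 and H2afx at 74.3. In EASCs the order was H3f3b at 123.7, H2afz at 106.8, H2afx at 64.9, and H1f0 at 56.3. On the same scale Hist1h2bh was at 38.2 in SASCs, 34.1 in PASCs, and 81.6 in EASCs, where it lay between H2afz and H2afx. Over all samples, no other replication-dependent gene was above the 14.4 of Hist1h4b.

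Other genes of histone biology were read from lists. Of 19 further histone loci listed under LOC symbols, 12 were tested, of which 9 were higher in EASCs and 10 in PASCs than in SASCs and 0 were lower at the DEG threshold by edgeR, where 13.6% and 12% of all genes were higher. However, 10 of the 12 were over the filter's limit in fewer than 3 SASCs samples. The most abundant of those, LOC102549173, overlaps Hist1h3a and had 0.166 ± 0.115 CPM (SD, n = 3) in SASCs, against 3.42 ± 0.366 CPM in PASCs and 3.81 ± 0.405 CPM in EASCs. Among other histone variants 4 of 9 were tested. Cenpa, the centromeric H3, was higher in both depots at 2.28 ± 0.515 CPM (SD, n = 3) in SASCs, against 25.4 ± 1.06 CPM in PASCs and 17.6 ± 1.29 CPM in EASCs, with log2 fold changes of 3.45 in PASCs and 2.92 in EASCs. H1fx, a further linker histone, was a DEG in PASCs at 1.32, and H3f3c was lower in EASCs at -1.07 (adjusted p = 0.0265 by edgeR).

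Of 17 genes that transcribe cluster histones or process their mRNA, 3 were higher and 0 were lower at the DEG threshold in each comparison with SASCs by edgeR, with medians of 0.04 in EASCs and 0.27 in PASCs. That share is near the 13.6% and 12% of all genes. They were E2f1, an S-phase transcription factor, with log2 fold changes of 1.84 in PASCs and 1.42 in EASCs, Lsm11, a subunit of the U7 snRNP that cuts histone pre-mRNA, with 1.05 and 1.07, and Zfp473, which binds that complex, with 1.06 and 1.03. Slbp, the protein that binds the stem-loop, had 21.5 ± 2.35 CPM (SD, n = 3) in SASCs, against 42.2 ± 2.29 CPM in PASCs and 36.5 ± 1.86 CPM in EASCs and stayed under 2-fold, at 0.97 in PASCs and 0.76 in EASCs. At a fold change under 2, 5 genes of the list were higher and 4 lower in EASCs, and 8 higher and 4 lower in PASCs, where 21.9%, 20%, 22.6%, and 19.7% of all genes were. The 4 lower genes were Npat, a co-activator of histone transcription (-0.45 in PASCs and -0.54 in EASCs), Nfyb, a subunit of the CCAAT-binding factor (-0.51 and -0.88), Casp8ap2 (-0.51 and -0.76), and Gon4l (-0.40 and -0.31). Among 24 histone chaperones and assembly factors, 9 were higher in PASCs and 8 in EASCs and 0 were lower at the DEG threshold by edgeR, where 12% and 13.6% of all genes were higher. At a fold change under 2, 9 more were higher and 4 lower in each comparison. Of all genes, 21.9% were higher and 20% lower at that threshold in EASCs, and 22.6% and 19.7% in PASCs. The lower genes in both included Atrx (-0.91 in PASCs and -0.95 in EASCs), Cabin1 (-0.89 in both), and Ubn1 (-0.58 and -0.76), while Daxx, the partner of Atrx, was higher (0.63 and 0.60). Asf1b, which hands H3 and H4 to the replication fork, had 2.81 ± 0.219 CPM (SD, n = 3) in SASCs, against 32.2 ± 2.37 CPM in PASCs and 21.6 ± 1.497 CPM in EASCs. Chaf1b, a subunit of the chromatin assembly factor at the fork, had 1.65 ± 0.318 CPM (SD, n = 3) in SASCs, against 9.95 ± 0.546 CPM in PASCs and 7.23 ± 0.676 CPM in EASCs.

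Genes of S phase and proliferation were higher in the visceral depots for 15 of 16 in PASCs and 14 of 16 in EASCs, with medians of 1.63 and 1.60, where 12% and 13.6% of all genes were higher. Mcm5, a subunit of the replicative helicase, had 7.29 ± 0.764 CPM (SD, n = 3) in SASCs, against 61.6 ± 1.44 CPM in PASCs and 45.7 ± 1.01 CPM in EASCs, and Top2a, which untangles replicated DNA, had 12.5 ± 0.676 CPM (SD, n = 3) in SASCs, against 119.8 ± 1.99 CPM in PASCs and 62.1 ± 5.300 CPM in EASCs. The 16 genes summed to 224.2 to 228.9 CPM in SASCs, 970.5 to 982.2 CPM in PASCs samples, and 673.9 to 691.1 CPM in EASCs, and the part of proliferation in the histone values was not tested. Their sum was thus highest in PASCs, as were H2afx and H2afz, although Ccne1, a cyclin of S-phase entry, had means of 12.2 CPM in PASCs and 15.7 CPM in EASCs. In contrast, Hist1h2bh, Hist1h4b, and Hist3h2a were highest in EASCs.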

How the data were processed

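RNA of SASCs, PASCs, and EASCs at passage 3 was sequenced, with 9 samples, 3 in each group, assigned by their labels. The authors removed adaptors, aligned paired-end reads with TopHat (TopHat2 and rn5 in the submitters' processing notes, rn6 in the methods), and deposited counts per gene, which are whole numbers and not normalized. The counting tool and the use of strand are not given in the sources used here, so near-identical and overlapping histone genes may share reads. The table has 0 unused sample columns.

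The table was fitted whole with edgeR 4.0.16 (R 4.3.3, limma 3.58.1): TMM factors of 0.740 to 1.23, filterByExpr with a minimum count of 10, 1 model of 3 groups without a block, quasi-likelihood test, and Benjamini-Hochberg adjustment over the 14770 genes in each of 3 comparisons. The study used DEGseq, which takes no replicate spread. The common biological coefficient of variation was 0.0685. A DEG needed an adjusted p-value under 0.05 and more than a 2-fold change. CPM were computed with TMM. Total counts of 17591916 to 30299032 per sample put 3 counts at 0.104 to 0.159 CPM, for counting error only. On simulated counts for EASCs against SASCs with 14383 genes, 190 of 200 changed genes were recovered, with 2 false calls. The changed genes were set at a fixed fold above the 2-fold threshold, so recovery of changes near that threshold was not measured.

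The members and lists were chosen with earlier results of these data known. By rule, all replication-independent members were named, and per-sample values were given for the 3 members of each class with the highest mean CPM and for any against its class, and in the context lists at most 5 genes with the largest changes. Slbp, Npat, Nfyb, Casp8ap2, Gon4l, Atrx, Cabin1, Ubn1, Daxx, Ccne1, LOC100360145, LOC100361558, and LOC102549173 were named after their values were seen, as were the H2B genes Hist1h2bcl1, Hist1h2bo, and Hist1h2bl. Replicate numbers did not pair the samples: correlations of the deviations of same-numbered samples ranged from -0.030 to 0.071. Samples of a group differed by more than sampling noise (chi-square per degree of freedom at least 6.15). Promoter windows were matched to RefSeq by gene ID, or by a unique synonym where rows share an ID. Alternatives were DESeq2 1.42.0, total counts without TMM, no count filter, 2 groups only, the replicate block, removal of rRNA genes, histone genes left out of the scaling, any fold change, and each sample left out.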

Additional observations from a re-analysis of the deposited data

Results flagged for a closer look

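Hist1h2bh and H1f0 were singled out because their log2 fold changes against SASCs had opposite signs in EASCs and PASCs and EASCs differed from PASCs by the direct test. In that test, 3 histone genes were higher and 4 lower at any fold change, where 16.1% and 14.5% of all genes were, and the others had the same sign in both depots. The value of H1f0 in PASCs against SASCs was 0.16 and turned to -0.17 under total counts without TMM, so the opposite signs of H1f0 depend on the scaling. The value of Hist1h2bh in PASCs against SASCs was -0.17 (adjusted p = 0.0407, edgeR), with overlapping samples. That call was lost under several alternatives, for example without PASCs replicate 2 (-0.095, adjusted p = 0.298), so the opposite signs of Hist1h2bh are uncertain. For Hist1h2bh the difference between EASCs and PASCs was 1.26 on the log2 scale (adjusted p = 4.49e-14, edgeR), with all EASCs samples above all PASCs samples. For H1f0 it was -0.75 (adjusted p = 1.69e-10, edgeR), with all EASCs samples below all PASCs samples, a difference under 2-fold. The difference between EASCs and PASCs in these genes was as called under every alternative run.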

How the results depend on the processing

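Under DESeq2, removal of rRNA genes, and removal of the histone genes from the scaling, 21, 19, and 1 histone genes were higher in EASCs against SASCs, PASCs against SASCs, and EASCs against PASCs, the counts of the report. A replicate block in the model gave counts of 21, 18, and 1, with Hist1h2bo in PASCs (adjusted p = 0.0597) and Hist2h2be in EASCs (adjusted p = 0.0515) lost, and other calls were kept. The numbers did not pair the samples. Total counts without TMM gave 16, 18, and 1, and reversed H2afy in EASCs (-0.014) and PASCs (-0.048) and H1f0 in PASCs (-0.17), where the construction of that scaling moved the median of all genes by -0.40, -0.32, and -0.070 in the order above and put Hist1h2bh (0.69), Hist1h4b (0.73), and H2afz (0.93) of EASCs against SASCs under 2-fold. No count filter gave 24, 22, and 1, with more genes tested. Only the samples of the 2 groups compared gave 19, 17, and 1, where the filter kept fewer histone genes and no gene that it kept lost its DEG call. At any fold change, lower histone genes numbered 3 in EASCs and 3 in PASCs against SASCs, where 34.3% and 34.6% of all genes were lower. Histone genes of EASCs against PASCs numbered 3 higher and 4 lower, where 16.1% and 14.5% of all genes were. All genes called numbered 10298, 10227, and 4530 in place of 4105, 3979, and 1091, since smaller changes count. With each sample left out, higher histone genes ranged from 19 to 23, from 17 to 21, and from 1 to 2, the 2 being without PASCs replicate 2. At depths where 3 counts are 0.104 to 0.159 CPM, most cluster genes of SASCs were near the limit of detection, and their fold changes are imprecise.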
